A study of Danio rerio with 2 samples.

Results

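Keratins are the intermediate filament proteins of epithelial cells. A keratin filament is built from a type I protein joined to a type II protein, so that every epithelium makes at least one gene of each type. In mammals keratin 8, of type II, and keratin 18, of type I, are the keratins of simple epithelia and the filament pair of hepatocytes, where they are known to respond to toxic injury. Keratin 5 is a type II keratin of the epidermis. The zebrafish genes considered here are 8 keratins that the liver tables of an arsenic study list: krt8 and krt18a.1, the orthologs of the simple epithelial pair; krt4 and krt5, type II genes of the surface epithelium and epidermis; and krt91, krt92, krt94 and krt97, further members of the family that were put in neither class. They were chosen by symbol, with their difference between the libraries already known, so every difference below is a description and none was tested. The tables hold 17963 genes, counting each transcript without a matched symbol as a gene of its own.

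The arsenate library came from liver of wildtype zebrafish aged 3 months and exposed to sodium arsenate for 96 h, in 3 L tanks of about 15 adults. The water library came from liver of wildtype zebrafish of the same age, given as siblings and kept in water as controls. The same 96 h, 3 L tanks and about 15 adults per tank are given for these controls. RNA was profiled by 3' SAGE, a method that reads a short tag near the 3' end of a transcript and counts tags, so a level does not scale with transcript length. These are called arsenate liver and water liver below. There was 1 library per group, so no replicate check was possible, and neither the sex of the fish nor the number of livers behind each library is given in the sources used here. The arsenate library held 4420935 tags and the water library 2592679. Levels are in RPM, for which the tags of each library were brought to the same total, and a single tag stood for 0.226 RPM in arsenate liver and 0.386 RPM in water liver. Intervals in parentheses are exact 95% intervals that cover counting error only. Of 8 hepatocyte markers measured, all had tags in both libraries, and fabp10a, which encodes a fatty acid binding protein of hepatocytes, was at 23450 RPM in arsenate liver and 96575 RPM in water liver. Markers of neighbouring organs were present too and are given below.

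The keratins of the liver tables divided into those that were higher, those that were close to equal and those that were much lower in arsenate liver. Only krt18a.1 was at least 2-fold higher in RPM + 1 (1 of 8), while krt4, krt5, krt91 and krt97 were at least 2-fold lower (4 of 8), and krt8, krt92 and krt94 were neither. All 8 genes had at least 10 tags over both libraries, the minimum used for every gene. Of the 7839 genes that met this minimum, 15.6% passed the limit for higher and 14.4% that for lower. These were 1222 and 1125 genes, or 1680 and 975 when both library totals left out the most abundant genes. Those left out were the 14 genes that ranked among the 10 most abundant of either library. Because the members were chosen on this contrast, nothing is read from the comparison of these shares. In bulk liver RNA, fewer cells of a type and less RNA per cell cannot be told apart.

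**Figure D1:**
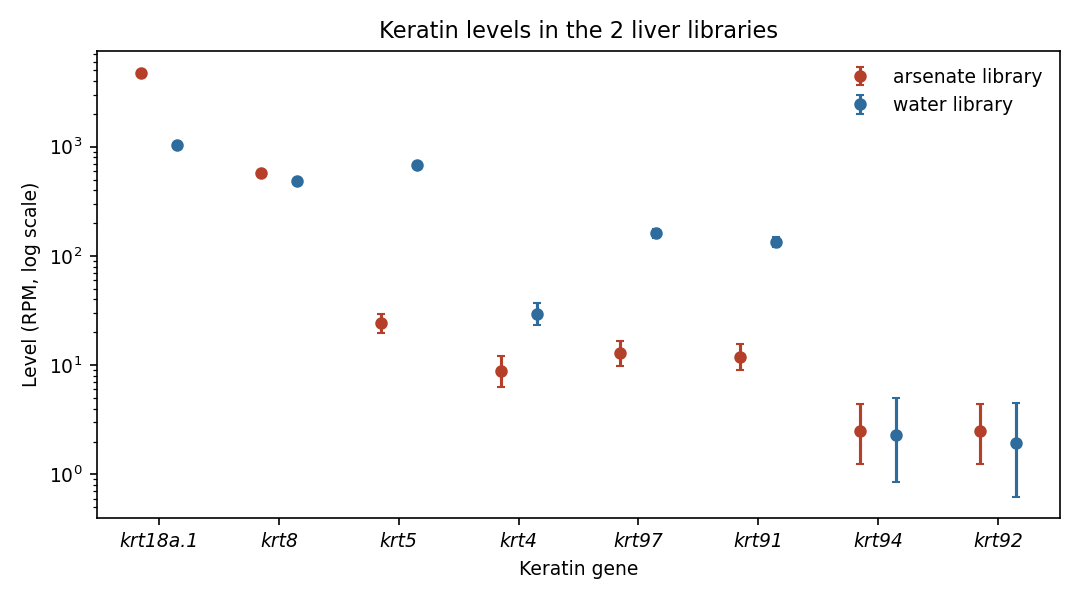
Level of each keratin gene (x axis) in RPM on a log scale (y axis) in arsenate liver (red, left) and the water library (blue, right). Points are the values of the 1 library of each group and bars are exact 95% counting intervals. The points of krt18a.1 stand at 4765 RPM and 1043 RPM and those of krt5 at 24.2 RPM and 687 RPM, while those of krt8, krt92 and krt94 lie close together.

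Among the simple epithelial keratins, krt18a.1 (NM_178437) had 21064 tags in arsenate liver and 2703 in water liver. That was a level of 4765 RPM (4701 to 4829) against 1043 RPM (1004 to 1083), or 4.57-fold higher in arsenate liver (4.39 to 4.76). The gene was the most abundant of the 8 keratins in both libraries, and ranked 34 among all genes of the arsenate library and 139 among those of the water library. Its type II partner krt8 (NM_200080) had 2514 tags in arsenate liver and 1260 in water liver. The level of krt8 was 569 RPM (547 to 591) in arsenate liver and 486 RPM (459.5 to 514) in water liver, a ratio of 1.17 (1.09 to 1.25). The interval lies above 1, but it holds no variation between fish, and krt8 stayed well inside the 2-fold limits. The simple epithelial pair summed to 5333 RPM in arsenate liver and 1529 RPM in water liver, 3.49-fold higher (3.37 to 3.61), nearly all of it from krt18a.1. krt18a.1 has a tandem copy, krt18a.2, next to it in the genome and not analysed here, and how tags common to such copies were assigned is not given, so the value of krt18a.1 is uncertain to that extent.

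Counted within each library, which needs no scaling between libraries, there were 8.38 krt18a.1 tags per krt8 tag in arsenate liver and 2.15 in water liver. The ratio of these ratios was 3.91 (3.61 to 4.23). The excess of type I over type II tags of this partner pair was therefore present in both libraries and larger in arsenate liver. Tag counts are of transcripts, and protein was not measured.

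The epidermal keratins were both lower in arsenate liver, to unequal extents. krt5 (NM_131156), a type II keratin, had 107 tags in arsenate liver and 1781 in water liver. Its level was 24.2 RPM (19.8 to 29.3) in arsenate liver against 687 RPM (655 to 720) in water liver, 28.4-fold lower (23.3 to 34.8). In the water library krt5 outnumbered krt8, with 1.41 krt5 tags per krt8 tag, while the arsenate library had 0.0426. By rank krt5 stood at 2181 in arsenate liver and at 187 in water liver. krt4 (NM_131509), the type II keratin whose promoter is widely used to mark surface epithelium in zebrafish, had 39 tags in arsenate liver and 77 in water liver. At 8.82 RPM (6.27 to 12.1) against 29.7 RPM (23.4 to 37.1) it was 3.37-fold lower (2.26 to 5.08). The interval of krt4 does not reach that of krt5. Within the libraries there were 2.74 krt5 tags per krt4 tag in arsenate liver and 23.1 in water liver, an 8.43-fold difference (5.31 to 13.2), so the epidermal genes did not keep a common proportion. Summed, krt4 and krt5 stood at 33.0 RPM in arsenate liver and 717 RPM in water liver, 21.7-fold lower (18.3 to 25.9).

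Among the genes put in neither class, krt91 and krt97 were lower in arsenate liver by similar amounts. krt91 (NM_001003445) had 53 tags, or 11.99 RPM (8.98 to 15.7), in arsenate liver and 351 tags, or 135 RPM (122 to 150), in water liver, 11.3-fold lower (8.44 to 15.4). krt97 (NM_001002383) had 57 tags, or 12.9 RPM (9.77 to 16.7), in arsenate liver and 417 tags, or 161 RPM (146 to 177), in water liver, 12.5-fold lower (9.44 to 16.8). These genes lie in different keratin clusters of the genome. There were 0.930 krt91 tags per krt97 tag in arsenate liver and 0.842 in water liver. The ratio of ratios was 1.105 (0.725 to 1.68), so a change in their proportion could not be told from counting error. Against krt97, krt5 was lower by a further 2.28-fold (1.59 to 3.23) in arsenate liver, an interval that excludes equal change at the level of counting error. The summed level of krt91 and krt97 was 24.9 RPM in arsenate liver and 296 RPM in water liver.

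krt92 (NM_001017824) and krt94 (NM_001077454) were close to the limit of the method. krt92 had 11 tags in arsenate liver and 5 in water liver, or 2.49 RPM (1.24 to 4.45) against 1.93 RPM (0.626 to 4.50), a ratio of 1.29 (0.413 to 4.74). krt94 had 11 tags in arsenate liver and 6 in water liver, or 2.49 RPM against 2.31 RPM (0.849 to 5.04), a ratio of 1.08 (0.364 to 3.54). Both intervals run past 2-fold in each direction, so a difference of that size was not detectable at this depth. Their levels were the lowest of the 8 keratins in both libraries. krt92 belongs to the same gene cluster as krt91.

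**Figure D2:**
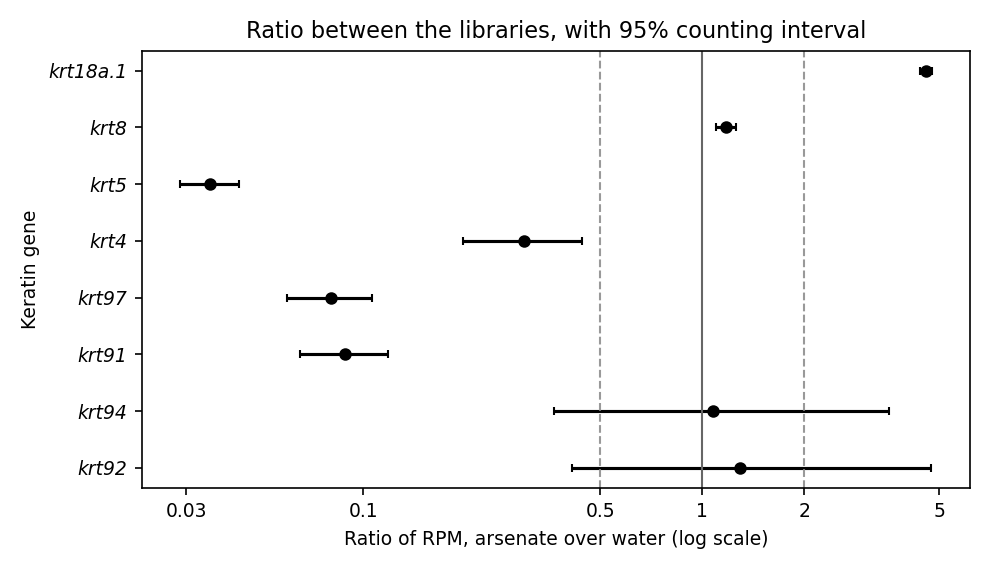
Ratio of the RPM of each keratin gene, arsenate over water, on a log scale (x axis), for the 8 genes (y axis). Points are the ratios of the 1 library of each group, bars are exact 95% counting intervals, the solid line is equality and the dashed lines are ratios of 0.5 and 2. krt18a.1 lies above 2, the intervals of krt5, krt4, krt97 and krt91 lie below 0.5, and those of krt94 and krt92 span both limits.

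The order of the levels differed between the libraries. In the arsenate library it ran krt18a.1, krt8, krt5, krt97, krt91, krt4 and then krt92 and krt94 at the same level. The intervals of krt97, krt91 and krt4 overlapped each other, so their order could not be told from counting error. In the water library the order was krt18a.1, krt5, krt8, krt97, krt91, krt4, krt94 and krt92. There the intervals of krt97 and krt91 overlapped, as did those of krt94 and krt92. The place of krt5 relative to krt8 was thus the exchange among the abundant keratins that lay outside the intervals. The 4 lower genes spanned 8.82 to 24.2 RPM in arsenate liver and 29.7 to 687 RPM in water liver.

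The make-up of the tags of the 8 keratins followed from these values. The 8 genes summed to 5396 RPM (5328 to 5465) in arsenate liver and 2546 RPM (2485 to 2608) in water liver, a ratio of 2.12 (2.06 to 2.18). Without krt18a.1 the sum was 632 RPM in arsenate liver and 1503 RPM in water liver, 2.38-fold lower (2.27 to 2.50), so this gene decides the direction of the sum. Of the tags of these 8 genes, krt8 and krt18a.1 together held 98.8% (98.7 to 99.0) in arsenate liver and 60.0% (58.9 to 61.2) in water liver. krt5 held 0.449% (0.368 to 0.542) in arsenate liver and 27.0% (25.9 to 28.1) in water liver. The type II genes were taken as krt4, krt5 and krt8 by their known names and not by a check of protein sequence. They held 11.2% of the tags of the 8 genes (10.8 to 11.6) in arsenate liver and 47.2% (46.0 to 48.5) in water liver. Their summed level was 602 RPM in arsenate liver and 1203 RPM in water liver, while the other 5 genes summed to 4794 RPM and 1343 RPM in arsenate and water liver.

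**Figure D3:**
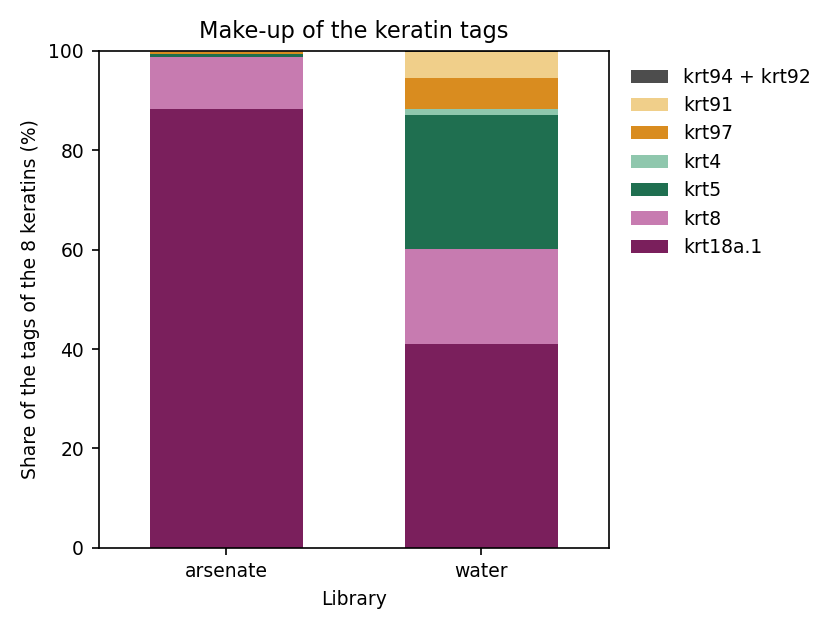
Share of the tags of the 8 keratin genes (y axis, percent) held by each gene in arsenate liver (left bar) and the water library (right bar). krt18a.1 fills 88.3% of the arsenate bar and 41.0% of the water bar, and the segments of krt5, krt97 and krt91 that are wide in the water bar are barely visible in the arsenate bar.

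Gene order was read from the RefSeq annotation of assembly GRCz12tu, used here for names and neighbours alone. krt5, krt8 and krt18a.1 are consecutive protein-coding genes in it. This single stretch therefore held the keratin with the lowest ratio, 0.0352 for krt5, a keratin near equality, and the keratin with the highest ratio, 4.57 for krt18a.1. krt92 and krt91 lie in a run of keratin genes, with cyt1l, cyt1 and krt17 between them, of which krt17 had 3 tags in arsenate liver and 1 in water liver and cyt1l had none in either. The gene next to krt91 on its other side is eif1, a translation initiation factor gene, with 534.5 RPM in arsenate liver and 581 RPM in water liver, a ratio of 0.920 (0.862 to 0.982). The lower level of krt91 was not shared by this neighbour. krt97 lies between krt222 and krt96, and krt94 between krt93 and krt98. Of those 4 genes only krt93 was analysed here, and it had no tag in either library. Some keratin neighbours of krt91 and krt92 were not analysed either. How any tags common to such neighbours were assigned is not given, as for krt18a.1, so the values of krt91, krt92, krt94 and krt97 share that limit.

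Other keratin genes with a matched symbol added almost nothing, while any keratins among unmatched rows were not counted. Rows with a matched symbol held 73.2% of the tags of arsenate liver and 81.3% of those of water liver. The tables list 6 more genes with a keratin symbol that could be matched, namely cyt1l, krt15, krt17, krt18b, krt93 and krt95. 4 of them had a tag and none reached 10 tags over both libraries, with 8 tags in arsenate liver and 6 in water liver in all. krt18b, a further keratin 18 gene, had 4 tags in arsenate liver and none in water liver, which is too few to compare. Among genes in the tables, intermediate filaments outside the keratin family were scarce as well. Of 21 such genes listed, 8 were in the tables, and the others could not be read. Of the 8, only lmnb1, which encodes a lamin of the nuclear envelope, had at least 10 tags. Its level was 16.5 RPM in arsenate liver and 9.64 RPM in water liver, a ratio of 1.71 (1.07 to 2.82). The mesenchymal filament gene vim was in the tables and had no tag in either library.

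**Figure D4:**
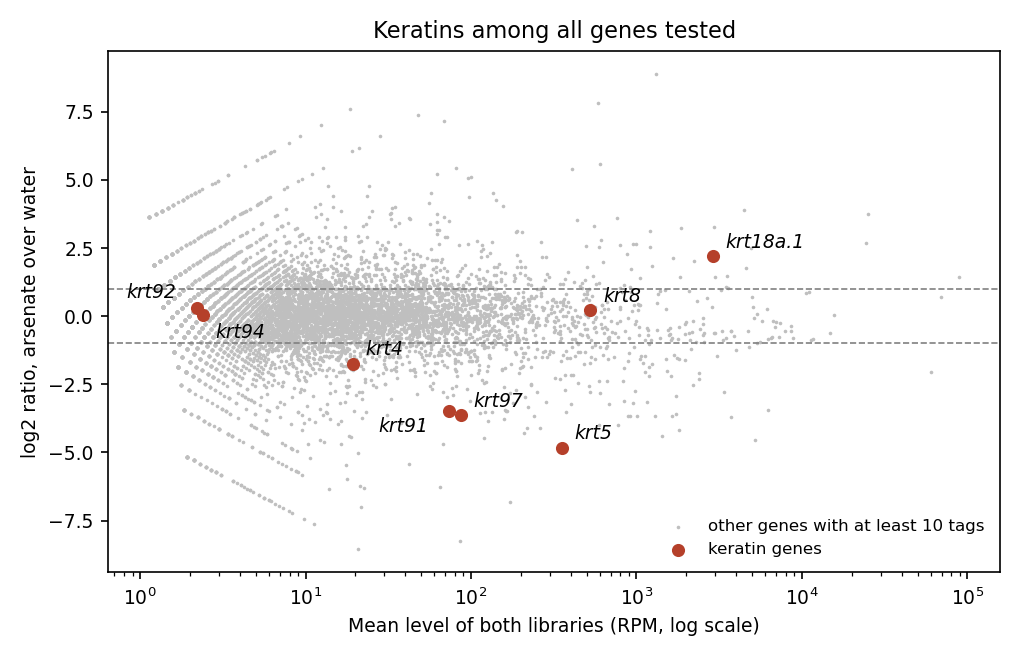
log2 ratio, arsenate over water with a prior count of 0.5 (y axis), against the mean RPM of both libraries on a log scale (x axis), for the 7839 genes with at least 10 tags (grey) and the 8 keratins (red, named). Dashed lines mark a 2-fold ratio. krt18a.1 lies above and krt5, krt97, krt91 and krt4 below the dashed lines, and krt8, krt92 and krt94 lie between them.

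Keratin filaments are anchored in the cell membrane at desmosomes. Of 27 desmosome and hemidesmosome genes listed, only 6 were in the tables, and 5 of these had at least 10 tags. Of the 5, 3 were at least 2-fold lower, none higher and 2 neither, with a median log2 ratio of -1.43 beside 0.03 over all genes. The plakophilin gene pkp3a, a desmosomal plaque protein, was at 13.1 RPM in arsenate liver and 47.4 RPM in water liver, 3.62-fold lower (2.63 to 5.03). The periplakin gene ppl, whose protein links keratins to the plaque in stratified epithelia, had 10 tags in arsenate liver and 38 in water liver, 6.48-fold lower (3.17 to 14.6). pkp2 was the third gene lower, named after its values were seen, at 4.98 RPM in arsenate liver and 13.5 RPM in water liver. The plectin gene pleca, a linker between intermediate filaments and other cell structures, stood at 15.8 RPM in arsenate liver and 11.6 RPM in water liver, a ratio of 1.37 (0.880 to 2.18). The other gene that was neither, pkp1b, had 14 tags in arsenate liver and 5 in water liver.

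Genes of adherens and tight junctions lay on the other side. Among 13 measured genes, 7 passed the limit for higher, 1 that for lower and 5 neither, with a median log2 ratio of 1.09. The catenin gene ctnnb2, whose protein binds cadherins, was at 307 RPM in arsenate liver and 135 RPM in water liver, 2.27-fold higher (2.02 to 2.56). The claudin gene cldn15lb was at 170 RPM in arsenate liver and 79.8 RPM in water liver, 2.13-fold higher (1.82 to 2.49). The 1 gene lower was the claudin gene cldna, with 3 tags in arsenate liver and 28 in water liver. Genes of the actin and tubulin cytoskeleton had a median log2 ratio of 0.79, with 24 of 25 ratios above 1, 8 genes higher by the same limit, 1 lower and 16 inside it. The actin gene actb2 was 2.02-fold higher (1.90 to 2.15) and the tubulin gene tubb6 7.88-fold higher (3.68 to 20.1), while tubb4b, with more tags than either, was at 1203 RPM in arsenate liver and 657 RPM in water liver, a ratio of 1.83 (1.73 to 1.935). The gene lower was vil1, the villin of intestinal and renal brush borders. Scaling on the totals without abundant genes moved the median log2 ratio over all genes up by 0.22. On it, 12 of these 25 genes were at least 2-fold higher.

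**Figure D5:**
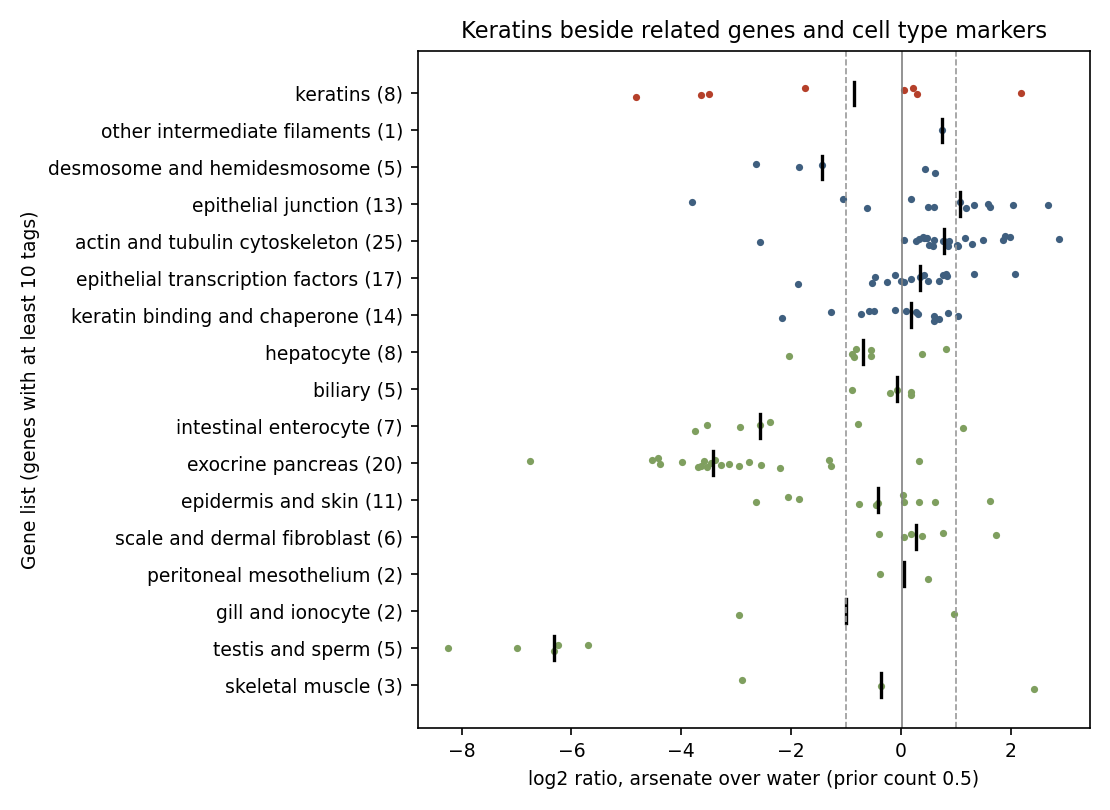
log2 ratio, arsenate over water with a prior count of 0.5 (x axis), of every measured gene of each list (y axis, number of genes in parentheses), with the keratins in red, related gene lists in blue and cell type markers in green. Black bars are list medians, the grey line is the median of all genes and the dashed lines are 2-fold. The keratins spread from krt5, below -4, to krt18a.1, above 2, while most exocrine pancreas and all testis markers lie left of the dashed line.

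Skin could enter a liver dissection, so epidermal markers other than the 8 keratins were read beside krt4 and krt5. Of 31 listed, 17 were in the tables, 16 had a tag and 11 had at least 10 tags, of which 1 was higher, 3 were lower and 7 were neither, with a median log2 ratio of -0.42. Summed, the list stood at 249 RPM in arsenate liver and 354 RPM in water liver, 1.42-fold lower. Of the 11 ratios, 5 were above 1 and 6 below. The gene higher was the claudin gene cldnb, with 18 tags in arsenate liver and 3 in water liver, a ratio of 3.52 (1.03 to 18.6). The 3 genes lower were ppl and pkp3a, given above among the desmosome genes at 6.48-fold and 3.62-fold lower, and pycard. The last was named after its values were seen, with 3 tags in arsenate liver and 8 in water liver. The list's most abundant genes, icn and s100a10b, encode proteins of the S100 family that may not be restricted to skin. These genes were at ratios of 0.732 (0.629 to 0.851) and 0.746 (0.641 to 0.869). They held most of the sum, and without them the list stood at 70.8 RPM in arsenate liver and 113 RPM in water liver, 1.596-fold lower (1.36 to 1.88). This reading was chosen after the data were seen, as was the sum of hepatocyte markers without fabp10a. The gene tp63, which encodes the transcription factor that defines basal epidermis, had 11 tags in arsenate liver and 6 in water liver, or 2.49 RPM against 2.31 RPM. The claudin gene cldne, under the minimum of 10 tags, had no tag in arsenate liver and 6 in water liver, and cyt1l had none in either. The part of skin in the keratin values was not tested.

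Markers of other organs were read beside the low keratins, and they differed by organ. Exocrine pancreas markers were at least 2-fold lower in 19 of 20 genes measured, or 18 of 20 on the totals without abundant genes, with a median log2 ratio of -3.43, and summed to 3300 RPM in arsenate liver and 38506 RPM in water liver. The elastase gene cela1.5, with no tag in arsenate liver and 31 in water liver, left this median at -3.43 when set at 3 tags. Of 7 intestinal enterocyte markers 5 were lower and 1 higher, with a median of -2.57, and their sums were 404 RPM and 1483 RPM in arsenate and water liver. Most of both sums came from rbp2a, at 212 RPM in arsenate liver and 1109 RPM in water liver. Next was apoa4b.2, at 142 RPM and 245 RPM, inside the 2-fold limits. All 5 testis and sperm markers measured were lower, summing to 2.04 RPM in arsenate liver and 323 RPM in water liver with the 3 listed genes under 10 tags included. Of 6 gill and ionocyte markers in the tables, foxi1, slc12a3, slc12a10.2 and atp1a1a.3 had no tag in either library. Of the 2 measured, the carbonic anhydrase gene ca2 was lower, at 16.3 RPM in arsenate liver against 127 RPM in water liver. The other, atp6v1aa, was at 40.3 RPM against 20.4 RPM, and passed the limit for higher on the totals without abundant genes. Mesothelial markers, from the covering of the abdominal organs, were neither higher nor lower in 2 of 2 genes measured, with a median of 0.06. These were podxl, at 51.1 RPM in arsenate liver and 66.3 RPM in water liver, and tcf21, with 20 tags and 8 tags. The listed genes wt1a, wt1b, krt15, hand2 and cav1 were under the minimum of 10 tags, so 2 genes stand for this tissue. The part of these tissues in the levels of krt4, krt5, krt91 and krt97 was not tested.

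For krt8 and krt18a.1 the bile duct is the other simple epithelium of the liver. Of 5 biliary markers measured, none was at least 2-fold higher or lower, and the median log2 ratio was -0.06. The annexin gene anxa4, the most abundant, was at 141 RPM in arsenate liver and 162 RPM in water liver, a ratio of 0.869 (0.767 to 0.986). The bile duct transcription factor gene sox9b had 6 tags in arsenate liver and none in water liver. Over the hepatocyte markers the median was -0.68, and 1 of 8 was lower, fabp10a, and 7 were neither. Of the 8, 2 had a ratio above 1, among them the fibrinogen gene fgg at 13615 RPM in arsenate liver and 7653 RPM in water liver, and on the totals without abundant genes 1 hepatocyte marker was higher. Summed, the biliary markers were 1.14-fold lower in arsenate liver. The hepatocyte markers summed 2.39-fold lower, and 1.33-fold lower without fabp10a, at 38269 RPM in arsenate liver and 50746 RPM in water liver. The part of cell composition in krt18a.1 was not tested.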

How the data were processed

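RPM values were deposited by the authors in 1 table per library, under a header of TPM; they were read as RPM because each is a whole multiple of 1 value per library. Blank cells were taken as 0. Tags were sequenced by 3' SAGE on the SOLiD system, per the labels' protocols and the series' design text. The mapping tool, reference and any filter are not given in the sources used.

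Whole tags were recovered for 100% of values within 0.01 tags. Of 17991 transcripts, 10556 had a RefSeq accession and 9463 matched a symbol in the RefSeq gene table of GRCz12tu. Each keratin was 1 row. Other keratins may be among unmatched rows. Each unmatched row was kept as a gene of its own, also in the counts over all genes. krtcap genes, which are not keratins, were left out.

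A gene with at least 10 tags over both libraries was called higher where its RPM + 1 was 2 times that of the other library or more, and lower at 0.5 times or less. Ratios in the text are of RPM, with intervals converted from exact Clopper-Pearson bounds on the share of tags that is from arsenate liver; ratios of ratios have conditional exact intervals. These treat tags as independent molecules, which PCR copies are not. List medians use a prior count of 0.5. An exact binomial test on tags with Benjamini-Hochberg adjustment at 0.05, which compares the libraries and not the conditions, was an alternative. It called a gene only if the ratio of RPM was also at least 2 or at most 0.5. Members and lists were chosen with earlier results of these data known. Named genes were the 8 keratins and, in each list, from the genes with most tags and those farthest from a ratio of 1. Of the latter, some with few tags are only counted, and the result of 1 gene is not reported here. No keratin outside the 8 had the 50 tags set for full values. Scaling alternatives used edgeR 4.0.16 and DESeq2 1.42.0 in R 4.3.3; other steps used Python 3.11.15 and scipy 1.17.1. The steps were tested on simulated data.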

Additional observations from a re-analysis of the deposited data

How the results depend on the processing

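No paired analysis was possible because each group has 1 library. The counts of keratins, 1 higher and 4 lower, were the same under every scaling, pseudocount and filter and with thinning, except that 3 were lower at a ratio of 4, where krt4 drops out by the construction of that limit. Across scalings krt18a.1 ran from 4.41 to 5.31 and krt8 from 1.13 to 1.36. With thinning krt92 and krt94 had equal tags in both libraries. The ratio of the sum of krt8 and krt18a.1 was 3.36 with TMM and 4.05 on the totals without abundant genes. krt8 alone gave 1.17 and krt18a.1 alone 4.57. For krt4 and krt5, krt4 alone gave 0.297 and krt5 alone 0.0352. Over all genes the counts higher and lower were 580 and 610 with a pseudocount of 5, 713 and 565 with at least 50 tags, 2176 and 1913 at a ratio of 1.5, and 303 and 351 at 4, beside 1222 and 1125. The exact binomial test, which compares the libraries only, called 1055 of all genes higher and 1050 lower. These calls also had to pass a 2-fold ratio of RPM, so the 2 ways of calling share that limit. Depth limits krt92 and krt94, and no setting addresses variation between fish.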

Other observations

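Most measured genes for transcription factors of epithelia, and most on the list of keratin binding proteins and chaperones, lay inside the 2-fold limits. Most of all genes did so too, with 15.6% higher and 14.4% lower, so nothing particular to these lists is read from it. Of 17 epithelial transcription factor genes measured, 2 passed the limit for higher, 1 that for lower and 14 neither, with a median log2 ratio of 0.35. hnf4a, a hepatocyte regulator, had 10 tags in arsenate liver and 22 in water liver. cebpb was at 378 RPM in arsenate liver and 375 RPM in water liver. Of 14 measured genes on the list of keratin binding proteins and chaperones, 14-3-3 genes among them, none was higher, 2 were lower and 12 neither, with a median of 0.19. The chaperone gene hspa8 was at 219 RPM in arsenate liver and 527 RPM in water liver, 2.41-fold lower (2.22 to 2.62). On the totals without abundant genes, 2 genes of this list and 3 of the transcription factors were higher.

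Connective tissue and muscle markers had few genes measured. Of 6 scale and dermal fibroblast markers, 1 was higher and 5 neither, 5 ratios were above 1 and 1 below, with a median log2 ratio of 0.29, and the gene higher, twist1b, was at 171 RPM in arsenate liver and 51.3 RPM in water liver. Of 3 skeletal muscle markers, acta1a was higher, actc1b lower and ckmb neither. Of the 11 muscle markers in the tables, 6 had no tag in arsenate liver and 1 had none in water liver.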
